A study of Mus musculus with 6 samples.

Results

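The genes described here serve interleukin-10 (IL-10) and interleukin-35 (IL-35), inhibitory cytokines of regulatory T cells (Tregs), as cytokine or receptor chains. Il27ra, a chain specific to the IL-27 receptor, and Prdm1, a transcription factor, are also in the set. Il12a and Il12rb2, which IL-35 also uses, are not. The set has 7 members, Il10, Ebi3, Il10ra, Il10rb, Il27ra, Il6st and Prdm1. They were taken by symbol from the deposited table of 24537 transcripts, 1 row each, and all 7 passed the filter on low values. RNA-seq was done on Tregs from the mouse colon in colitis that TNBS, a hapten, had provoked. The mice received 150 µl of 1% TNBS on the skin and, 7 days later, 100 µl of 2.5% TNBS into the rectum. The 3 KO-labelled libraries carry the genotype REV-ERB KO and the 3 labelled WT the genotype REV-ERB WT, both under the same colitis and with no library from healthy colon. The series title names REV-ERBα, a nuclear receptor of the circadian clock that represses transcription. For strain, age, allele, any Cre driver and the sort that yielded the Tregs, nothing is given in the sources used here. Nor do the labels say whether libraries came from separate animals or pools. The comparison asks how these genes differ in colon Tregs between libraries labelled as a REV-ERB knockout and as wild type.

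IL-10 is read by a receptor made of Il10ra, the chain specific to it, and Il10rb, a chain that it shares with IL-22 and other relatives, and it signals through JAK1 and TYK2 to STAT3. Mice that lack Il10 or its receptor develop inflammation of the colon, and IL-10 made by Tregs holds it back. Ebi3 is a subunit that forms IL-35 with the product of Il12a and IL-27 with the product of Il27. IL-35 is read through gp130, the product of Il6st, and Il12rb2, while IL-27 is read through gp130 and Il27ra. Prdm1 encodes Blimp-1, a transcriptional repressor that marks effector Tregs and is needed for much of their Il10 expression.

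The KO-labelled libraries held 12641850 to 15890630 reads and the WT-labelled ones 9794480 to 12122575, so that every KO-labelled library was deeper, and depth and genotype cannot be told apart. Nr1d1, which encodes REV-ERBα, lay at 141.4 to 169.2 TPM, a level adjusted for library size and for the length of the transcript, in the KO-labelled libraries and at 66.3 to 104.0 TPM in the WT-labelled ones. That is against the direction of a lost transcript, and with the deleted exons unknown it does not check the labels, so every direction below follows the labels as given. The 10 T cell markers, led by Cd2 and Cd4, summed to 2990 to 3366 TPM in the KO-labelled libraries and 3474 to 3885 TPM in the WT-labelled ones. The 11 Treg markers summed to 4973 to 5762 TPM in the KO-labelled libraries and 6338 to 7075 TPM in the WT-labelled ones. Both sums were lower in every KO-labelled library. Foxp3, which defines Tregs, stood at 200.6 ± 32.1 TPM in the KO-labelled libraries and at 568.4 ± 107.8 TPM in the WT-labelled ones (SD, n = 3 each). The Treg markers as a list differed less, with a median log2 difference (KO-labelled minus WT-labelled) of -0.097, 8 below 0 and 3 above. Ctla4 and Tnfrsf4, the Treg markers at the highest levels, differed by -0.40 and 0.048. In such bulk samples fewer cells of a type and less RNA per cell cannot be told apart. Of other cells, the 17 epithelial markers summed to 3287 to 6538 TPM in the KO-labelled libraries and 2300 to 3269 TPM in the WT-labelled ones. RNA of other cells that can make IL-10 was also there. The 16 macrophage and dendritic cell markers summed to 965.3 to 1755 TPM in the KO-labelled libraries and 932.9 to 1465 TPM in the WT-labelled ones, led by Lyz2 and C1qb. The 8 B and plasma cell markers summed to 565.0 to 2132 TPM in the KO-labelled libraries and 738.4 to 1581 TPM in the WT-labelled ones, led by Jchain, the joining chain of secreted antibodies. The 9 stromal and endothelial markers, led by Dcn, summed to 299.5 to 539.3 TPM in the KO-labelled libraries and 242.0 to 503.5 TPM in the WT-labelled ones. Markers of neutrophils, 6 in number, summed to 13.8 to 42.4 TPM in the KO-labelled libraries and 4.35 to 11.3 TPM in the WT-labelled ones. The 4 mast cell markers summed to 37.2 to 45.2 TPM in the KO-labelled libraries and 24.4 to 29.2 TPM in the WT-labelled ones. Both sums were without overlap, but singly only 1 of the 4 neutrophil markers tested and 0 of the 2 mast cell markers tested kept the groups apart. The mast cell protease Mcpt4 was at 0 in all 6 libraries. Markers of NK and CD8 T cells summed to 9.84 to 22.6 TPM in the KO-labelled libraries and 14.4 to 25.3 TPM in the WT-labelled ones. The part of these other cells in the levels of the members was not tested, beyond a covariate for the epithelial markers.

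The promoters of the members with an entry in the RefSeq promoter table (GRCm38.p6) are shown because these genes lay on both sides of the comparison, 250 bases up to the transcript start, written 5′ to 3′ on the strand of the gene. Il6st (chr13:112463820-112464069, plus strand) and Prdm1 (chr10:44458749-44458998, minus strand) were lower in the KO-labelled libraries. Ebi3 (chr17:55952373-55952622, plus strand) was higher by its mean, but its groups overlapped (limma adjusted p = 0.285). Of the 7 members 3 had an entry, and Il10, Il10ra, Il10rb and Il27ra did not. Capitals mark a match, on either strand, to AGGTCA, a half-site of nuclear receptors such as REV-ERB, CACGTG, the E-box of the clock activators, or GAAAGT, a core of Blimp-1 sites.
Il6st: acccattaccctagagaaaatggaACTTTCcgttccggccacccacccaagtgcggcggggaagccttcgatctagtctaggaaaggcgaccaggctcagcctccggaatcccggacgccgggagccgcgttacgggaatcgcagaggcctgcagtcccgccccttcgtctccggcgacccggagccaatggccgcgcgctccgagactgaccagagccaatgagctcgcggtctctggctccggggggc
Prdm1: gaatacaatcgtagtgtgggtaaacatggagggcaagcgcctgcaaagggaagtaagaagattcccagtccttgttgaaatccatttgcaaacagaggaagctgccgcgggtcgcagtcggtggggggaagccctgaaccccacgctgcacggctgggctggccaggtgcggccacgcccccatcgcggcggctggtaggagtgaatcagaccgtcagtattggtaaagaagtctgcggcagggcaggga
Ebi3: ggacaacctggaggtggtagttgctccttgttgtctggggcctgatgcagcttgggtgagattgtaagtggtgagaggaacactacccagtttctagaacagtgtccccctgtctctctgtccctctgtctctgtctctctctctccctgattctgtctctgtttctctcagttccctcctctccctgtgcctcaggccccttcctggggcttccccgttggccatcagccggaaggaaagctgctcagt
Il6st held 1 match, to GAAAGT on the reverse strand with its first base 226 bases before the start. The Prdm1 and Ebi3 windows held none of the motifs. Over the 32851 windows of the same length in the table, 14.0% held AGGTCA, 6.02% CACGTG and 12.3% GAAAGT. The GC content of the windows was 66.0% for Il6st, 59.2% for Prdm1 and 56.0% for Ebi3.

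In the KO-labelled libraries, Il6st, Il10 and Prdm1 were lower than in every WT-labelled library, Il10ra was higher than in every one, and Ebi3, Il27ra and Il10rb overlapped between the groups. Il6st stood furthest apart, at 0.411 of the level in the WT-labelled libraries, followed by Il10 at 0.545 and Prdm1 at 0.649. Ebi3 stood at 1.35 times and Il10ra at 1.29 times that level. Of all 13211 genes tested, 10.4% lay lower in every KO-labelled library, against 3 of the 7 members, and 10.6% lay higher, against 1 of the 7, so that in either direction the groups were apart for 21% of genes and for 4 of the 7. Below 0 lay 4 of the 7 differences, and 50.5% of those of all genes. None of the members passed the test over all genes (limma on log2(TPM + 1), Benjamini-Hochberg adjusted p from 0.119 to 0.928), nor did any other gene, so that 0% was called. Without adjustment 2068 genes (15.7%) had a p below 0.05, and 6 of the 7 members were among them, all but Il10rb. That count rests on the setting. It was 2 of 7 with the epithelial covariate (5.0% of all genes), 3 without WT 2 (8.31%) and 3 without the variance trend (14.5%). It was 4 without KO 1, KO 3 or WT 3 (11.3%, 22.5% and 10.8%). Without KO 2 or WT 1 it was 5 (9.06% and 20.1%). Under the rest it was 6, where the share of all genes ran from 13.0% (no filter) to 24.1% (centred on T cell markers). With that centring the 6 included Il10rb but not Il27ra, and under the others they were again all but Il10rb. The median difference of the members was -0.40 on the log2 scale, beside -0.0028 for all genes tested. With 3 libraries a side, the smallest p of an exact permutation test is 0.1, which 4 members reached. The members were chosen with earlier results of these data known, and they lay at percentiles 82.5 to 99.3 by level. Their counts beside the shares of all genes are therefore a description and no test.

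**Figure D1:**
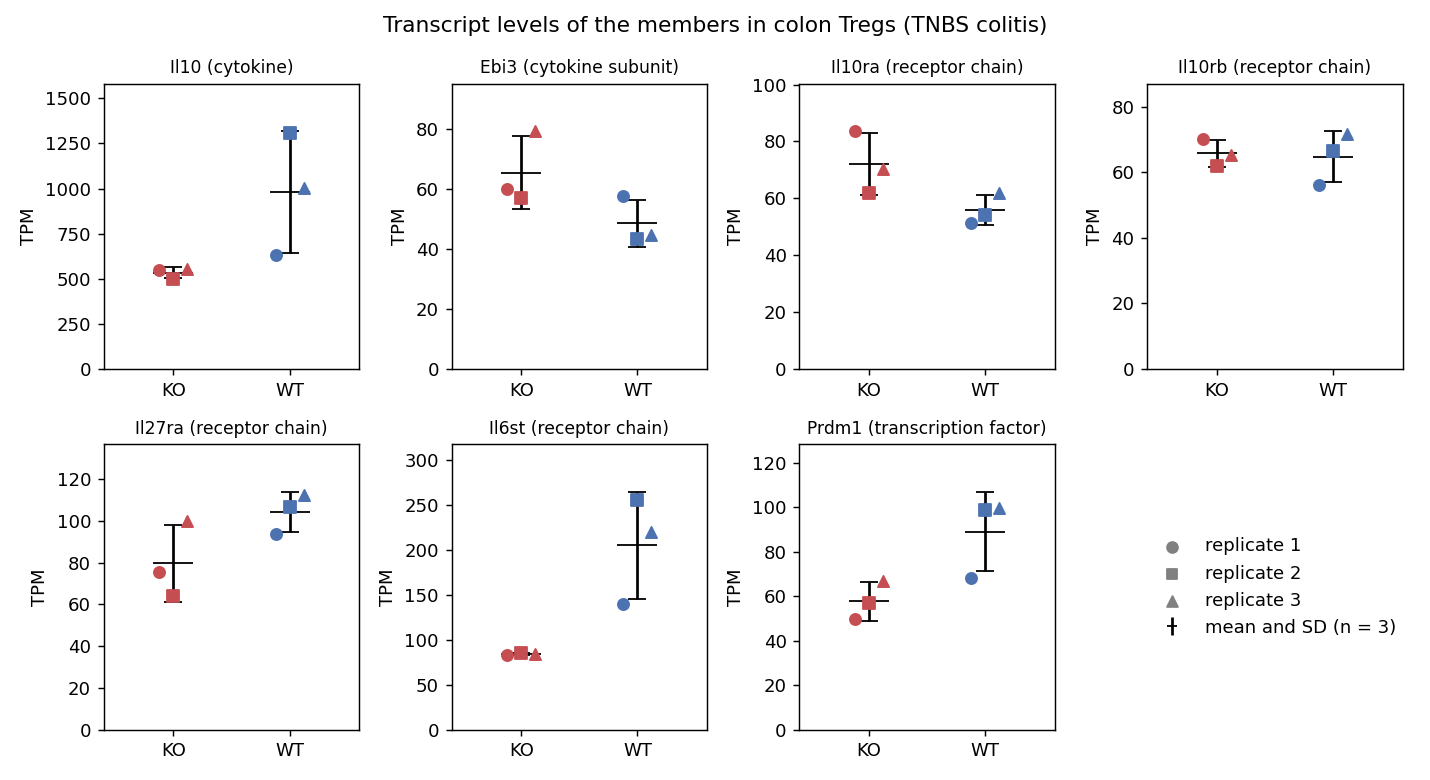
Transcript levels in TPM for the 7 members, 1 point per library, labelled KO on the left and labelled WT on the right of each panel, with the mean and SD of n = 3 and each axis starting at 0. Il6st sits between 83.1 and 85.0 TPM in all 3 KO-labelled libraries, against 139.5 to 255.8 TPM in the WT-labelled ones, and WT 1 is the library labelled WT nearest to the KO values for Il10, Il6st and Prdm1.

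Il10 (NM_010548, mm10 chr1:131019845-131024970, plus strand), the cytokine itself, was measured at 550.5, 499.7 and 551.8 TPM in KO-labelled libraries 1, 2 and 3, against 633.4, 1307 and 1000.3 TPM in WT-labelled libraries 1, 2 and 3. The KO-labelled libraries lay close together, while the WT-labelled ones spread over a range of more than their lowest value. The mean was 534.0 ± 29.7 TPM in the KO-labelled libraries and 980.4 ± 337.4 TPM in the WT-labelled ones (SD, n = 3 each). On the log2 scale the difference was -0.82 (SE 0.238, 95% interval -1.37 to -0.26, limma adjusted p = 0.207, exact permutation p = 0.1). Il10 was an abundant transcript in both groups, at percentile 98.9 of the genes tested by mean TPM in the KO-labelled libraries and 99.6 in the WT-labelled ones. Its values rest on 6026 to 7563 recovered reads in the KO-labelled libraries and 5381 to 13136 in the WT-labelled ones. Without the library labelled WT 1 the difference was -1.10 (limma adjusted p = 0.0579), and without WT 2 it was -0.58 (adjusted p = 0.561). With the epithelial covariate it was -0.35 (limma adjusted p = 0.980). Over the 17 alternative settings the adjusted p ran from 0.0579 to 0.980.

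Ebi3 (NM_015766, mm10 chr17:55952623-55957022, plus strand), the shared subunit of IL-35 and IL-27, had 60.1, 56.9 and 79.3 TPM in the KO-labelled libraries and 57.5, 43.4 and 44.8 TPM in the WT-labelled ones. KO 3 stood above the rest, and KO 2 lay just under WT 1, so the groups overlapped. It differed by 0.42 in log2 units (SE 0.164, 95% interval 0.04 to 0.80, limma adjusted p = 0.285, exact permutation p = 0.2), and 0.27 without KO 3. Its row overlaps Gm16712 on the opposite strand, which was at 0.218 TPM or below in every library.

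The transcripts of the partners of Ebi3 were close to 0. Il12a, which completes IL-35, had 2, 4 and 0 recovered reads in the KO-labelled libraries and 4, 2 and 2 in the WT-labelled ones, at most 0.483 TPM. Il27, which completes IL-27, had 8, 4 and 2 reads in the KO-labelled libraries and 0, 2 and 0 in the WT-labelled ones, at most 1.35 TPM. Ebi3 had 592 to 974 reads in the KO-labelled libraries and 391 to 438 in the WT-labelled ones. Neither partner passed the filter, so neither was tested.

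Il10ra (mm10 chr9:45253837-45269149, minus strand), the specific chain of the IL-10 receptor, had 83.6, 62.0 and 70.2 TPM in the KO-labelled libraries and 51.5, 54.2 and 61.9 TPM in the WT-labelled ones. The groups did not overlap, but KO 2 and WT 3 were nearly level. The difference was 0.35 (SE 0.136, 95% interval 0.04 to 0.67, limma adjusted p = 0.280, exact permutation p = 0.1). Without KO 1 it was 0.24. The row carries the non-coding RefSeq variant NR_136903 and spans Mir7086 on the same strand, which was at 4.44 TPM or below.

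Il10rb (NM_008349, mm10 chr16:91406235-91425834, plus strand), the chain shared within the IL-10 family, had 70.0, 62.0 and 65.2 TPM in the KO-labelled libraries and 56.2, 66.4 and 71.6 TPM in the WT-labelled ones. The groups overlapped over most of their range. The difference of 0.027 had a 95% interval of -0.25 to 0.30 (limma adjusted p = 0.928, exact permutation p = 0.9), and it turned to -0.069 without WT 1 and -0.019 without KO 1.

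Within each KO-labelled library Il10ra was level with or above Il10rb, and in each WT-labelled one it was below. The ratio of Il10ra to Il10rb was 1.19, 1.001 and 1.08 in the KO-labelled libraries and 0.916, 0.817 and 0.865 in the WT-labelled ones. The ratio of ligand to specific receptor, Il10 over Il10ra, was 6.58, 8.06 and 7.86 in the KO-labelled libraries and 12.3, 24.1 and 16.2 in the WT-labelled ones. Both ratios kept the groups apart. They were chosen after the values were seen and are given without a test.

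Il6st (NM_010560, mm10 chr13:112464070-112506860, plus strand), whose promoter is printed above, encodes gp130, the signalling chain that IL-35 and IL-27 share with IL-6. It was measured at 83.1, 85.0 and 84.3 TPM in KO-labelled libraries 1, 2 and 3, against 139.5, 255.8 and 219.4 TPM in WT-labelled libraries 1, 2 and 3. The values labelled KO were nearly equal, and the nearest library labelled WT stood well above them. The mean was 84.1 ± 0.945 TPM in the KO-labelled libraries and 204.9 ± 59.5 TPM in the WT-labelled ones (SD, n = 3 each). It differed by -1.23 in log2 units (SE 0.204, 95% interval -1.70 to -0.76), and by mean TPM it was 2.44-fold lower. By p it ranked 33 among the 13211 genes tested (limma p = 0.000341, adjusted p = 0.119, exact permutation p = 0.1). Without the library labelled WT 1 it passed the threshold, at -1.48 (limma adjusted p = 0.0274), as 1 of 7 genes that did, together with Foxp3 and the chemokine receptor Ccr2. Over its 17 alternative settings the adjusted p ran from 0.0274 to 0.867, the highest with the epithelial markers as a covariate, where the difference was -0.92.

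Il27ra (NM_016671, mm10 chr8:84030286-84042575, minus strand), the chain specific to IL-27, had 75.7, 63.8 and 99.9 TPM in the KO-labelled libraries and 93.9, 106.7 and 112.5 TPM in the WT-labelled ones. KO 3 lay above WT 1, so the groups overlapped. The difference was -0.40 (SE 0.166, 95% interval -0.79 to -0.02, limma adjusted p = 0.305, exact permutation p = 0.2), -0.58 without KO 3 and 0.0085 with the epithelial covariate. Its row overlaps Palm3 on the opposite strand, which was at 0.547 TPM or below. Il6st over Il27ra, the pair that reads IL-27, was 1.10, 1.33 and 0.844 in the KO-labelled libraries and 1.49, 2.40 and 1.95 in the WT-labelled ones, a description with no test.

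The other chains of the related receptors did not separate the groups. Il12rb2, the partner of gp130 in the IL-35 receptor, had 19.4, 19.9 and 10.2 TPM in the KO-labelled libraries and 27.6, 10.3 and 12.6 TPM in the WT-labelled ones (difference 0.038, limma adjusted p = 0.972). Il12rb1, a chain of the IL-12 and IL-23 receptors, had 30.0, 36.3 and 66.7 TPM in the KO-labelled libraries and 50.4, 62.3 and 67.0 TPM in the WT-labelled ones (difference -0.50, limma adjusted p = 0.411). WT 1 stood above all other libraries for Il12rb2, while WT 2 and WT 3 lay within the KO range, and KO 3 reached the WT values for Il12rb1.

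Prdm1 (NM_007548, mm10 chr10:44437174-44458748, minus strand), which encodes Blimp-1, had 49.6, 56.8 and 67.1 TPM in the KO-labelled libraries and 68.5, 98.9 and 99.9 TPM in the WT-labelled ones. KO 3 and WT 1 were nearly level, and the other libraries lay further apart. The mean was 57.8 ± 8.75 TPM in the KO-labelled libraries and 89.1 ± 17.9 TPM in the WT-labelled ones (SD, n = 3 each). The difference was -0.60 (SE 0.176, 95% interval -1.01 to -0.20, limma adjusted p = 0.207, exact permutation p = 0.1). It was -0.78 without WT 1, -0.37 with the libraries centred on T cell markers and -0.31 with the epithelial covariate.

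By level, Il10 stood first in both groups and Il6st second. In the KO-labelled libraries the remaining members followed as Il27ra, Il10ra, Il10rb, Ebi3 and Prdm1, and each overlapped the next, as Il6st did with Il27ra. In the WT-labelled ones the order was Il27ra, Prdm1, Il10rb, Il10ra and Ebi3, again with each neighbour overlapping, but Il6st stood clear of Il27ra. TPM is a level per transcript length, so these orders compare genes on 1 scale.

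**Figure D2:**
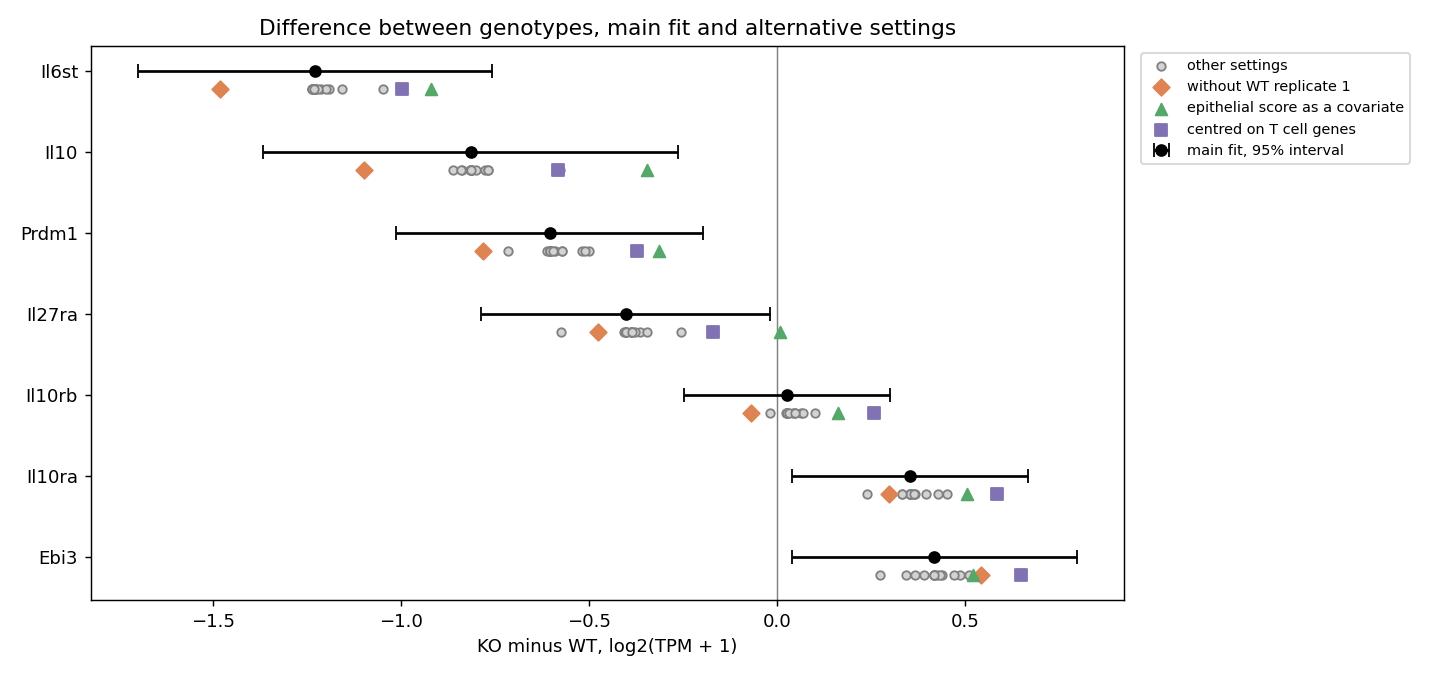
Difference labelled KO minus labelled WT on the log2(TPM + 1) scale for the 7 members (black points with 95% intervals) and the same difference under the 17 alternative settings, 3 of them marked. Il6st, Il10 and Prdm1 stay below 0 and Ebi3 and Il10ra above 0 in all of them, while Il10rb and Il27ra cross 0.

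Beside these genes, the markers tested of epithelium, neutrophils and mast cells had differences above 0, and those of T cells mostly below 0. All 9 stromal and endothelial markers were also above 0, with a median of 0.25. Of the 16 macrophage and dendritic cell markers 14 were above 0, with a median of 0.13. Those of B and plasma cells were split, 4 above and 4 below, and 3 of the 4 NK and CD8 T cell markers tested were below 0. The 4 neutrophil markers tested all had differences above 0, with a median of 1.73 at low levels, and so did the 2 mast cell markers tested, with a median of 0.65. The part of these cells in the differences of the members was not tested. Averaged on the log2 scale, the epithelial markers stood at 7.09, 7.71 and 6.73 in the KO-labelled libraries and 6.70, 6.04 and 6.40 in the WT-labelled ones, so that KO 3 and WT 1 were nearly level. All 17 had differences above 0, with a median of 0.83. Of the 10 T cell markers, 9 were below 0, with a median of -0.25. With the epithelial level as a covariate the differences were -0.92 for Il6st, -0.35 for Il10, -0.31 for Prdm1, 0.51 for Il10ra and 0.52 for Ebi3. Every KO-labelled library had a higher epithelial level than every WT-labelled one, so genotype and epithelial level cannot be fully told apart and these values are not corrected effects. Centring the libraries on the T cell markers moved the median of all genes to 0.23. On that scale Il6st stood at -0.997, Il10 at -0.58, Prdm1 at -0.37, Il27ra at -0.17, Il10rb at 0.26, Il10ra at 0.59 and Ebi3 at 0.65.

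Set against single T cell transcripts in the same library, the direction for Il10 depended on the gene chosen. Il10 over Cd3e, a chain of the T cell receptor complex, was 3.08, 2.96 and 2.46 in the KO-labelled libraries and 3.31, 4.53 and 3.43 in the WT-labelled ones. Il10 over Foxp3 ran the other way, at 2.82, 2.91 and 2.35 in the KO-labelled libraries and 1.40, 1.97 and 1.69 in the WT-labelled ones. Ebi3 over Foxp3 was 0.308, 0.332 and 0.338 in the KO-labelled libraries and 0.127, 0.0654 and 0.0759 in the WT-labelled ones. Il6st over Foxp3 overlapped between the groups, at 0.427 ± 0.0684 in the KO-labelled libraries and 0.355 ± 0.0407 in the WT-labelled ones (SD, n = 3 each). Relative to Foxp3, Il10, Ebi3 and Prdm1 were higher in every KO-labelled library, and relative to Cd3e, Il10 and Il6st were lower in every one. Foxp3 itself stood at 0.353 of its level in the WT-labelled libraries and ranked 3 by limma p among the genes tested, while Cd3e stood at 0.740. A gene that was less reduced than Foxp3 tends to have a higher ratio to it, so the Foxp3 ratios do not give a level per Treg. These ratios were chosen after the values were seen and carry no test.

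**Figure D3:**
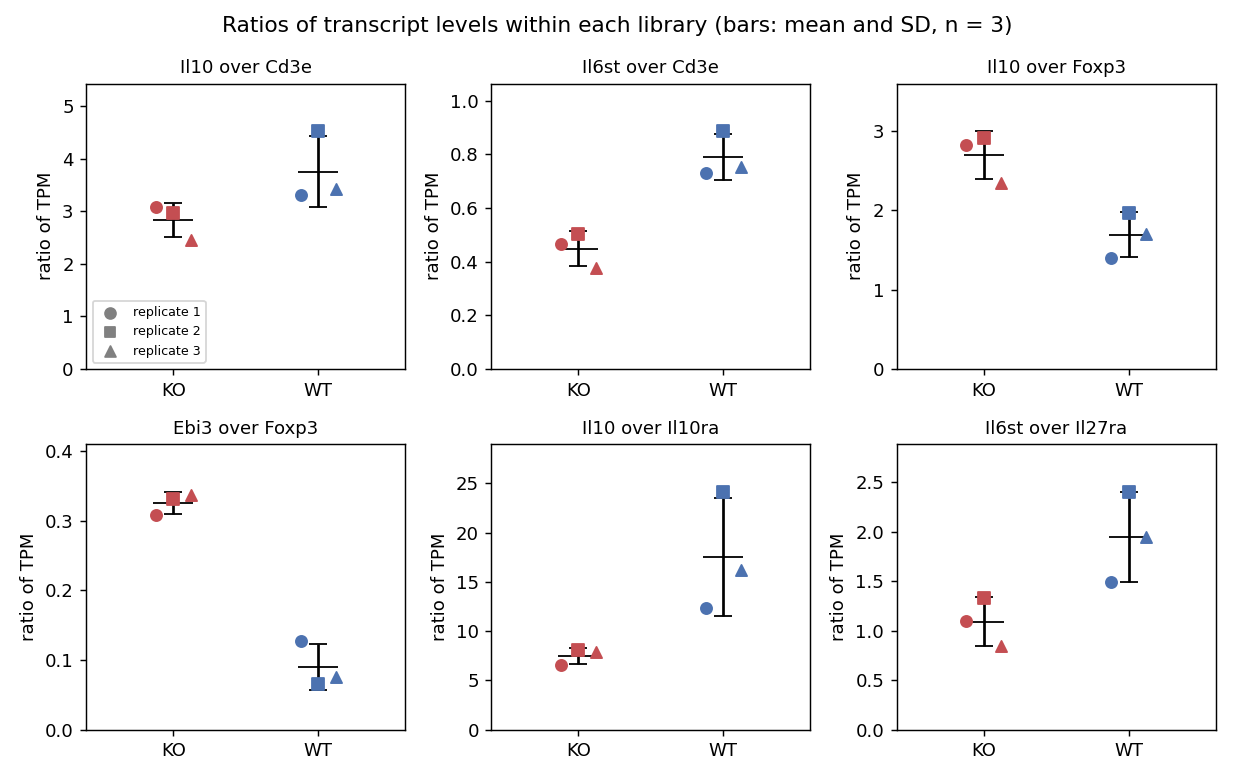
Ratios of TPM within each library, labelled KO on the left and labelled WT on the right of each panel, with the mean and SD of n = 3 and each axis starting at 0. Il10 over Cd3e averages 2.84 ± 0.328 in the KO-labelled libraries and 3.75 ± 0.672 in the WT-labelled ones, and Il10 over Foxp3 averages 2.69 ± 0.303 in the KO-labelled libraries and 1.69 ± 0.283 in the WT-labelled ones.

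The rest of the pathway did not shift as a block. Of 13 JAK, STAT and SOCS genes, 8 were below 0 and 5 above, with a median of -0.077, and 0 passed limma over all genes or had an unadjusted p below 0.05. Jak1, the kinase at Il10ra and gp130, had 196.8 ± 12.5 TPM in the KO-labelled libraries and 219.8 ± 18.6 TPM in the WT-labelled ones (SD, n = 3 each). Tyk2, the kinase at Il10rb, had 42.9 ± 13.4 TPM in the KO-labelled libraries and 51.1 ± 5.87 TPM in the WT-labelled ones. Stat4, which IL-12 and IL-35 receptors engage, had 213.9 ± 47.1 TPM in the KO-labelled libraries and 168.0 ± 22.3 TPM in the WT-labelled ones (difference 0.33, limma adjusted p = 0.384).

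Among 11 genes known, mainly from macrophages, to respond to IL-10, 6 were below 0 and 5 above, with a median of -0.10. None passed over all genes. Those with an unadjusted p below 0.05, 2 of the 11 (7.86% of all genes had one on the lower side), were Sbno2, a corepressor that IL-10 induces, at 56.1, 61.6 and 51.8 TPM in the KO-labelled libraries and 68.9, 66.7 and 66.7 TPM in the WT-labelled ones, and Il4ra, the IL-4 receptor chain, at 211.3 ± 25.5 TPM in the KO-labelled libraries and 256.7 ± 19.1 TPM in the WT-labelled ones (SD, n = 3 each). Il1rn, the antagonist of the IL-1 receptor, stood at 51.2, 95.9 and 44.9 TPM in the KO-labelled libraries and at 50.3, 35.6 and 41.4 TPM in the WT-labelled ones. KO 2 alone stood apart, and it was also the library with the highest epithelial and macrophage sums. A link between these values was not tested.

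Transcription factors that control Il10 in T cells lay on both sides of 0. Of 22 such genes, 14 were below 0 and 8 above, with a median of -0.15. None passed over all genes, while 5 had an unadjusted p below 0.05 on the lower side, where 7.86% of all genes had one, and 2 on the higher, where 7.8% did. Maf, an activator of Il10, stood at 203.5, 212.5 and 262.9 TPM in the KO-labelled libraries and at 316.4, 450.0 and 424.5 TPM in the WT-labelled ones, without overlap (difference -0.80, limma adjusted p = 0.130). Gata3, the factor of tissue repair Tregs and of type 2 helper cells, was on the other side, at 249.1, 166.4 and 221.5 TPM in the KO-labelled libraries and 126.8, 127.0 and 116.7 TPM in the WT-labelled ones (difference 0.76, limma adjusted p = 0.130).

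Genes that Blimp-1 is known to repress did not lie, as a list, opposite to Prdm1. Of 11, 6 were below 0 and 5 above, with a median of -0.030. Cxcr5, the receptor for homing to B cell follicles, had 17.9 ± 3.75 TPM in the KO-labelled libraries and 34.3 ± 4.45 TPM in the WT-labelled ones (difference -0.92, limma adjusted p = 0.130). Myc, a driver of growth, had 77.6 ± 6.69 TPM in the KO-labelled libraries and 64.8 ± 2.26 TPM in the WT-labelled ones (difference 0.26, limma adjusted p = 0.293). Id3 had 45.1 ± 14.3 TPM in the KO-labelled libraries and 33.1 ± 7.80 TPM in the WT-labelled ones (SD, n = 3 each). None of the 11 passed over all genes.

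Of 15 other ligands and receptor chains of the gp130 family, 9 were tested, 3 below 0 and 6 above, with a median of 0.24. Clcf1, a ligand that acts through gp130, stood at 15.7, 20.3 and 18.4 TPM in the KO-labelled libraries and at 29.7, 35.9 and 31.5 TPM in the WT-labelled ones, without overlap (difference -0.80, limma adjusted p = 0.119). Lif, another such ligand, leaned the other way at 27.7 ± 3.12 TPM in the KO-labelled libraries and 20.9 ± 5.81 TPM in the WT-labelled ones (SD, n = 3 each). Il6ra, the chain that pairs with gp130 for IL-6, had 11.7 ± 3.27 TPM in the KO-labelled libraries and 15.5 ± 2.86 TPM in the WT-labelled ones (limma adjusted p = 0.437). Of the 11 other ligands and receptors of the IL-10 family, 3 passed the filter, Il22, Il22ra1 and Il20rb. Il22, whose receptor also uses Il10rb, ranged from 45.3 to 171.6 TPM in the KO-labelled libraries and from 63.2 to 175.6 TPM in the WT-labelled ones, lowest in replicate 3 of each group.

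**Figure D4:**
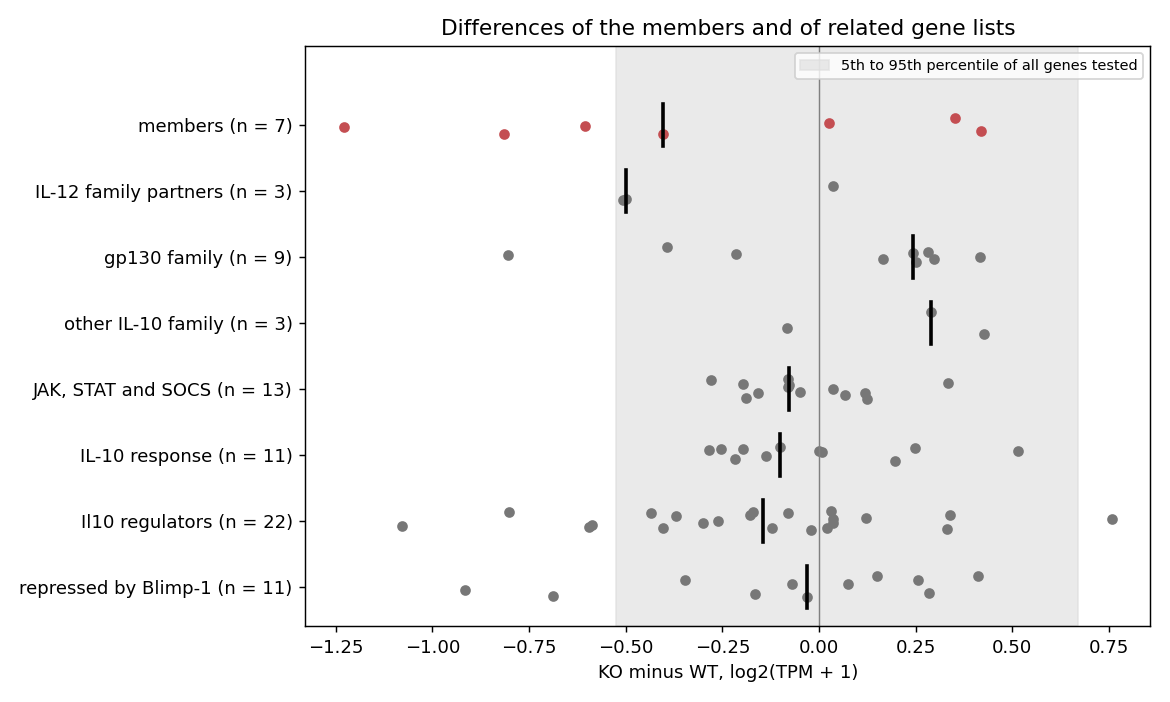
Difference labelled KO minus labelled WT on the log2(TPM + 1) scale for each tested gene of the set and of 7 related lists, with list medians as black bars and the 5th to 95th percentile of all genes tested (-0.53 to 0.67) shaded. Il6st, Il10 and Prdm1 lie below the shaded band, and the medians of the lists lie within it.

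By the shape of the profile over the 6 libraries, the genes nearest to Il10 were 4930503L19Rik, 2010111I01Rik, Gbp3, Rabgap1l and Tec. Likeness was the root-mean-square distance between log2(TPM + 1) profiles, each centred on its own mean, among 5867 other genes with a mean of at least 20 TPM. The distance was 0.0534 for 4930503L19Rik and 0.156 for Tec, the fifth. Gbp3, for instance, had 111.9, 103.8 and 123.4 TPM in the KO-labelled libraries and 156.4, 236.3 and 197.4 TPM in the WT-labelled ones, again lowest of the WT values in WT 1. Within the set, Il6st was nearest to Il10 at 0.222 and Prdm1 next at 0.229. The genes nearest to Ebi3 were 1110038B12Rik (0.0400), Cdk4, Etfa, Npm3 and Gmfg (0.0839), and they shared its high value in KO 3.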

How the data were processed

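The authors deposited TPM values per RefSeq transcript with coordinates and length, per the file headers. The submitters' processing notes name FastQC 0.11.8, Trim Galore 0.4.4, STAR 2.5.3a, HOMER 4.9.1 and mm10, with no settings. A stranded mRNA kit was used, per the labels' protocols. No source used here says whether counting used strand. The deposited TPM sum to 634200 to 644662 per library.

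Genes with at least 1 TPM in at least 3 of 6 libraries (13211) were tested with limma 3.58.1 in R 4.3.3, two-sided, with a variance trend on log2(TPM + 1), a pseudocount of 1 that understates changes of low genes, and genotype as the only term. P-values were adjusted by Benjamini-Hochberg over all genes tested, with a threshold of 0.05. The fit was tested on simulated reads that had the same dispersion for all genes. That dispersion need not match the spread of these libraries, so the simulation does not check the p-values given here. Exact permutation tests (two-sided) used scipy 1.17.1, figures matplotlib 3.10.9, both in Python 3.11.15. Since no label says that the libraries are separate animals, p-values reflect only the spread among them, possibly technical.

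Whole reads were recovered as TPM times length over a fixed step per library. In each library 99.99% of values of 500 reads or fewer came within 0.1 of a whole number. Between 80.5% and 82.8% of values up to 50 were even, so a recovered read need not be an independent fragment.

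The members and gene lists were chosen with earlier results of these data known. Named genes are the members, 4 partner chains, up to 3 genes of smallest p per pathway list, the 2 highest per marker list, and the 5 nearest profiles to Il10 and Ebi3. Other genes were named after their values were seen. Some genes that the rule names are not reported here. Alternatives were other pseudocounts, filters, scalings, voom on recovered reads, no trend, an epithelial covariate, a replicate block, and leaving out each library.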

Additional observations from a re-analysis of the deposited data

How the results depend on the processing

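Under 17 alternatives, Il10, Ebi3, Il10ra, Il6st and Prdm1 kept their direction. Il27ra turned to 0.0085 with the epithelial score as a covariate. Leaving out each library in turn gave -1.10 to -0.58 for Il10, 0.27 to 0.54 for Ebi3, 0.24 to 0.45 for Il10ra, -0.069 to 0.10 for Il10rb, -0.58 to -0.26 for Il27ra, -1.48 to -1.05 for Il6st and -0.78 to -0.50 for Prdm1. Il10rb turned negative without the library labelled WT 1 or KO 1. Il6st passed the threshold without WT 1 (-1.48, limma adjusted p = 0.0274) and in no other setting run. The number of genes past the threshold was 0 to 7 with 1 library left out, 7 without WT 1 and 1 without WT 2, and 0 in all other settings, voom on the recovered reads included. At an unadjusted p below 0.05 there were 2177 genes with voom, against 2068 in the fit reported, and over all settings 661 (epithelial covariate) to 3183 (centred on T cell markers), with 1085 without WT 2. Of the 7 members 2 to 6 were among them. The cause of these shifts was not tested. Libraries with the same replicate number did not deviate together (correlation of deviations over genes 0.0037, -0.22 and -0.041 for numbers 1, 2 and 3). The labels do not say whether the numbers pair libraries, and so few correlations cannot exclude it. With the replicate block 0 genes passed, and Il6st had an adjusted p of 0.210 (difference -1.23). Depth limits Il12a and Il27, which had 8 recovered reads or fewer in every library.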
